A study of Homo sapiens with 24 samples.

Results

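KIT, FLT3, CSF1R, PDGFRA and PDGFRB are the class III receptor tyrosine kinases, and KITLG encodes stem cell factor, the ligand of KIT. These 6 genes were taken by symbol from the deposited RNA-seq table of 25082 genes in SET-2, an established human megakaryoblastic cell line that carries an activated JAK2. All cells were grown in RPMI1640 medium with 20% FCS, and each group holds 3 libraries. The persistent lines were grown continuously in 1 of 4 type I JAK inhibitors, BMS911543, CYT387, INC424 (ruxolitinib) or SAR302503. The acute groups were naive cells given INC424 for 4 h or 48 h, with a vehicle group given DMSO for 4 h, and the last group was naive cells with no addition. The labels give no inhibitor concentration and do not say whether the 3 libraries of a group came from separate cultures, or whether a persistent line is 1 clone. The p-values therefore measure only the spread between these libraries, which may be technical. The comparisons address how the RNA of each persistent line, and of acutely treated cells, differed from that of cells without inhibitor.

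Class III receptors sit in the plasma membrane with immunoglobulin-like domains outside and a split kinase domain inside. A dimeric ligand brings receptor chains together, the kinase domains phosphorylate each other, and the adaptors and kinases of the RAS, PI3K and STAT routes bind to the phosphorylated tails. In blood formation KIT is the stem cell factor receptor of stem cells, progenitors and mast cells, FLT3 acts in early progenitors, and CSF1R in monocytes and macrophages. PDGFRA and PDGFRB are mainly receptors of stromal and muscle cells of vessel walls. JAK2 serves cytokine receptors that have no kinase domain, whereas KIT carries a kinase domain of its own.

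KIT lies on chromosome 4 between PDGFRA and KDR. The 250 bases before its RefSeq start are shown because KIT was the only member with high RNA and is the gene on which the results turn. They span chr4:54657707-54657956 on the plus strand of GRCh38.p14, and capitals mark the GC box GGGCGG.
KIT promoter: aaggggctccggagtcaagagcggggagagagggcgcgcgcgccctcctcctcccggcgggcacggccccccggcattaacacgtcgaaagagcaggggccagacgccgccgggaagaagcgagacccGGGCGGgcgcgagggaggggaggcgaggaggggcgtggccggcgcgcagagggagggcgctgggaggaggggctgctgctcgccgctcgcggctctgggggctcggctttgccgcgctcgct
This stretch was 76.4% G and C, against a median of 58.0% over 35116 RefSeq promoters of the same length, and 8.1% of promoters were at or above it. On both strands it held 1 GGGCGG, a motif present in 42.6% of these promoters. It held no GATAA, the core of GATA sites (present in 20.4% of promoters), no CANNTG, the E-box (61.8%), and no TATAAA (10.7%).

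Each library held 21770721 to 36160750 reads in genes, and values are given as normalised read counts. Of 10 megakaryoblast markers, 9 were expressed, with PF4 at a median of 0, and their summed level ran between 72869 and 169667 in 23 libraries. CYT387 persistent library 2 stood apart. Its profile correlated with the other libraries of its line at r of 0.842 or more, where the lowest r within any other group was 0.955. It held 148756 normalised counts of squamous epithelium markers, 26245 of stroma markers and 14880 of macrophage markers, where the other 23 libraries had at most 30462, 471 and 2269. Tests were therefore run without it, and results with it are given beside those of the CYT387 line. In bulk RNA, fewer cells of a type and less RNA per cell cannot be told apart.

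KIT RNA was lower in all 4 persistent lines than in naive cells and was highest after 48 h of INC424. In BMS911543 persistent cells the 3 libraries held 3285, 3155 and 3196 normalised counts of KIT. In INC424 persistent cells they held 2751, 2975 and 2726. SAR302503 persistent cells held 4611, 5425 and 3137. CYT387 persistent cells kept more KIT, 10977 and 10085 in libraries 1 and 3, and 3795 in library 2. Acute INC424 gave 16663, 18810 and 21015 at 4 h and 27148, 27804 and 26479 at 48 h. Cells given DMSO held 15637, 15822 and 14807. Naive cells held 24656, 22179 and 21611. No library of a persistent line reached the lowest library of the DMSO or naive groups.

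**Figure D1:**
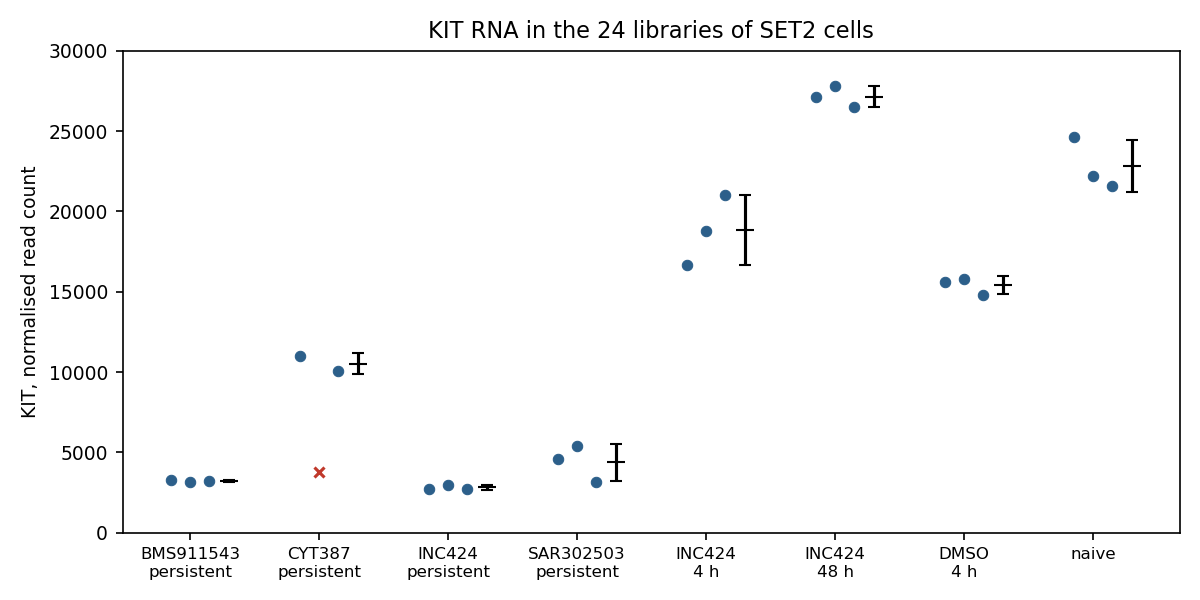
Normalised read count of KIT (linear axis from 0) in each of the 24 libraries by group, with the group mean and SD as a bar. The red cross is CYT387 persistent library 2, which was left out of the mean, and every library of a persistent line lies at or under 10977 while the other 4 groups lie at or above 14807.

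From highest to lowest group mean the order was INC424 48 h (27144 ± 663, SD, n = 3), naive (22815 ± 1619), INC424 4 h (18829 ± 2176), DMSO (15422 ± 540), CYT387 persistent (10531 ± 631, n = 2), SAR302503 persistent (4391 ± 1160), BMS911543 persistent (3212 ± 66.6) and INC424 persistent (2818 ± 137). Among neighbours in this order, the libraries of SAR302503 and BMS911543 overlapped, and those of the other neighbouring groups did not. These values rest on 2426 to 28955 reads of KIT per library.

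Across the mean of the 4 lines against naive cells, KIT fell by 2.34 on the log2 scale (SE 0.10, adjusted p = 1.25e-14). Here and below, log2 differences are on the log2(value + 1) scale and adjusted p-values come from limma's moderated test with Benjamini-Hochberg adjustment over 19882 genes, with a threshold of 0.05. In this comparison 16.2% of all genes tested were called lower. The INC424 line held 8.10-fold less KIT than naive cells (log2 -3.02, adjusted p = 4.88e-15). The BMS911543 line held 7.10-fold less (log2 -2.83, adjusted p = 2.06e-14). The SAR302503 line held 5.20-fold less (log2 -2.41, adjusted p = 6.13e-13). The CYT387 line held 2.17-fold less (log2 -1.11, adjusted p = 4.36e-06), and with library 2 its difference was -1.60 (adjusted p = 9.12e-05). Genes called lower made up 17.5% in the INC424 line, 19.3% in BMS911543, 16.1% in SAR302503 and 8.86% in CYT387, and 636 genes (3.2%) were lower in each of the 4 lines, KIT among them.

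KIT was also set against the summed megakaryoblast markers of the same library. That sum was mostly ITGA2B (median 68794 over 23 libraries), with NFE2 next (median 16832). KIT amounted to 2.31 to 2.98% of the sum in INC424 persistent cells, 3.13 to 3.54% in BMS911543, 2.25 to 5.58% in SAR302503 and 6.05 to 6.47% in CYT387 persistent libraries 1 and 3, against 14.8 to 20.0% in naive cells. CYT387 persistent library 2 had a marker sum of 64799 and KIT at 5.86% of it, close below the other libraries of its line. The share of KIT thus differed between every persistent library and every naive library in the same direction as its level. With the DMSO group in place of naive cells, a choice made after the data were seen, the mean of the lines differed by -1.78 (adjusted p = 2.2e-12) and the CYT387 line by -0.55 (adjusted p = 0.0042).

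The lines differed among themselves, and 5 of the 6 pairs passed the test for KIT. The CYT387 line held 3.74-fold more KIT than the INC424 line (log2 1.90, adjusted p = 4.03e-10) and 2.4-fold more than the SAR302503 line (log2 1.30, adjusted p = 2.76e-07). The BMS911543 line held less KIT than the CYT387 line (log2 -1.71, adjusted p = 2.5e-09). With library 2 of the CYT387 line these 3 differences were 1.41, 0.81 and -1.22, all past the threshold. The pairs of the SAR302503 line with BMS911543 (log2 -0.41, adjusted p = 0.014) and with INC424 (log2 -0.60, adjusted p = 0.00129) were smaller. The SAR302503 library lowest in KIT, library 3, was also the one with 30462 counts of squamous markers, and the part of those cells in its KIT value was not tested. Between the BMS911543 and INC424 lines the difference was 0.19, with a 95% interval of -0.08 to 0.46 and an adjusted p of 0.301. Over all genes, 24.3% were called between CYT387 and INC424, 26.8% between CYT387 and SAR302503, 30.6% between BMS911543 and CYT387, 38.1% between BMS911543 and SAR302503, 22.7% between INC424 and SAR302503 and 27.3% between BMS911543 and INC424. The difference between BMS911543 and SAR302503 lost the threshold without SAR302503 library 1 (adjusted p = 0.0597) or library 2 (adjusted p = 0.118), and both SAR302503 pairs lost it when only the compared lines were fitted (adjusted p = 0.125 and 0.0798) or with all 24 libraries (adjusted p = 0.241 and 0.127).

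KIT was higher after 48 h of INC424 than in DMSO cells, while the difference at 4 h did not pass. At 48 h it was 1.76-fold above the DMSO group (log2 0.82, 95% interval 0.55 to 1.08, adjusted p = 1.69e-05), where 23.1% of genes were called higher. The summed megakaryoblast markers were higher too, 134604 to 140950 at 48 h against 72869 to 91811 with DMSO. The share of KIT in that sum therefore overlapped, at 18.8 to 20.7% at 48 h and 16.7 to 22.8% at 4 h, against 16.1 to 21.5% with DMSO. KIT at 48 h was also above the 4 h group (log2 0.53, adjusted p = 0.00342, or 0.173 with all 24 libraries), where 12.8% of genes were called higher. At 4 h the difference from DMSO was 0.28, with an interval of 0.01 to 0.55 and an adjusted p of 0.15, and 16.7% of genes were called in either direction. The 4 h libraries did not overlap those of the DMSO group, but the call depended on the fit and was made when only these groups were fitted (adjusted p = 0.0257) or without SAR302503 library 3 (adjusted p = 0.0176). The vehicle group was sampled at 4 h only, so treatment and culture time cannot be told apart at 48 h.

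DMSO cells themselves differed from naive cells. KIT was lower in the DMSO group (log2 -0.56, adjusted p = 0.00138, or 0.106 with all 24 libraries), as were 20.4% of genes. The megakaryoblast marker sum was 72869 to 91811 in DMSO cells, against 123130 to 146466 in naive cells, and KIT as a share of it overlapped (16.1 to 21.5% against 14.8 to 20.0%). Against naive cells, KIT after INC424 differed by -0.28 at 4 h (adjusted p = 0.122) and by 0.25 at 48 h (adjusted p = 0.142), so neither acute group was called and the 4 h difference had the other sign. The INC424 persistent line and the 48 h group, which were exposed to the same inhibitor, lay at the ends of the order. The persistent line held 9.63-fold less KIT than the 48 h cells (log2 -3.27, adjusted p = 1.69e-15), and 40.6% of genes were called between them.

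**Figure D2:**
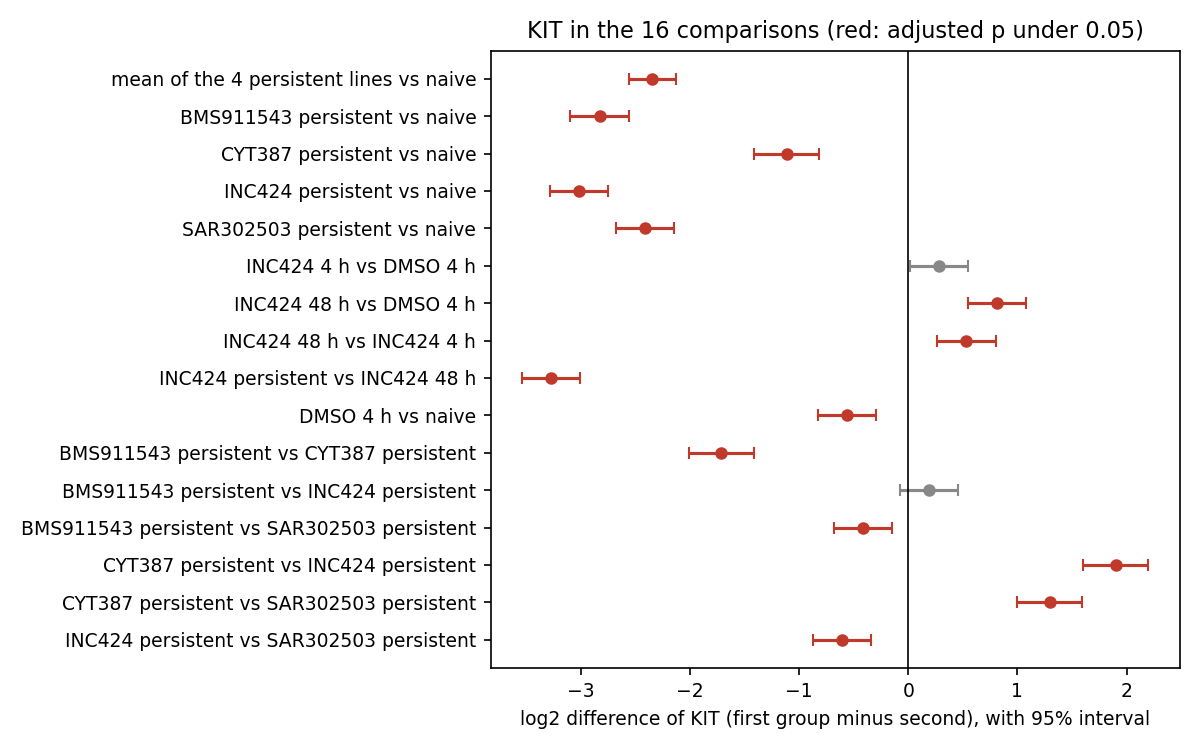
Log2 difference of KIT (first group minus second, horizontal axis) in the 16 comparisons, with 95% intervals from the limma fit. Red points passed the adjusted threshold and grey points did not, and every persistent line lies left of 0 against naive cells, as does the INC424 line against the 48 h cells.

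The other 5 members were near the lower end of detection. In RPKM computed from the recovered reads (reads per kilobase of exon, scaled to library depth), KIT stood at 148 in naive cells, while PDGFRB stood at 0.269, CSF1R at 0.145, FLT3 at 0.0883 and PDGFRA at 0.0659, and KITLG had no read. Of the 16 tests of each tested gene, KIT passed 14, and CSF1R, PDGFRA, PDGFRB and KITLG together passed 9 of 64. Over all genes tested, 16.7% to 44.5% were called in either direction, depending on the comparison. FLT3 reached a normalised count of 10 in only 2 of 23 libraries and was not tested.

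FLT3, the receptor of the FLT3 ligand, had 0 reads in 9 of 23 libraries and a median of 2.00 normalised counts. BMS911543 persistent library 3 stood out with 75.2 counts (74 reads), where libraries 1 and 2 of that line had 3 and 0 reads. Naive library 1 had 28.1 counts (24 reads), and naive libraries 2 and 3 had 0 and 3 reads. All DMSO libraries had 0 reads, which allows up to 3 reads each by counting error alone. No group held FLT3 evenly in its libraries above these levels.

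CSF1R, the receptor of CSF1 and IL34, had at most 29.3 normalised counts. BMS911543 persistent cells had 2, 4 and 0 reads, CYT387 persistent libraries 1 and 3 had 0 and 8, INC424 persistent cells had 1, 5 and 2, and SAR302503 persistent cells had 1, 18 and 15. INC424 gave 25, 5 and 8 reads at 4 h and 6, 5 and 6 at 48 h. DMSO cells had 18, 27 and 31 reads and naive cells 25, 6 and 16. The BMS911543 and INC424 libraries all lay under the lowest naive library, and the SAR302503 libraries overlapped the naive ones. CSF1R passed the test in the BMS911543 line (log2 -2.70, adjusted p = 0.018), in the INC424 line (log2 -2.36, adjusted p = 0.0401) and in the mean of the lines (log2 -2.06, adjusted p = 0.0276). All 3 calls were lost with all 24 libraries and without naive library 1, where the mean of the lines differed by -1.58 (adjusted p = 0.172). The BMS911543 call was also lost without its library 3, the INC424 call without its library 1 or 3 or naive library 3, and that of the mean without CYT387 library 1 or naive library 3.

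PDGFRA, the receptor of PDGFA, PDGFB and PDGFC, had at most 38.1 normalised counts. BMS911543 persistent cells had 0, 1 and 4 reads, CYT387 persistent libraries 1 and 3 had 5 and 14, INC424 persistent cells had 18, 18 and 5, and SAR302503 persistent cells had 5, 30 and 4. INC424 gave 2, 7 and 7 reads at 4 h and 6, 6 and 9 at 48 h. DMSO cells had 3, 11 and 5 reads and naive cells 6, 17 and 20. Among the lines, BMS911543 alone lay under all naive libraries, and it passed the test (log2 -2.78, adjusted p = 0.00743). That call was at the threshold without BMS911543 library 1 (log2 -2.23, adjusted p = 0.0506). The BMS911543 line was also below the INC424 line (log2 -2.47, adjusted p = 0.0212) and the SAR302503 line (log2 -2.29, adjusted p = 0.0242), and both calls were lost without BMS911543 library 1 or 2, the first also without INC424 library 1 or 2 and the second without SAR302503 library 2 (log2 -1.35, adjusted p = 0.185). With 10 in place of 1 added before the log, they shrank to -0.93 (adjusted p = 0.0705) and -0.91 (adjusted p = 0.0617). Over the mean of the lines the difference was -1.02 (adjusted p = 0.235).

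PDGFRB, the receptor of PDGFB and PDGFD, was detected in every library. CYT387 persistent libraries 1 and 3 were the highest, with 78.1 and 71.2 normalised counts (66 and 67 reads). BMS911543 persistent cells averaged 31.3 ± 7.81 (SD, n = 3), INC424 persistent cells 35.3 ± 7.77, SAR302503 persistent cells 33.5 ± 24, DMSO cells 29.9 ± 4.41 and naive cells 45.5 ± 14.0. INC424 gave 30.3 ± 10.5 at 4 h and 17.5 ± 4.03 at 48 h. The CYT387 line passed the test against the SAR302503 line (log2 1.39, adjusted p = 0.0282), and the BMS911543 line against CYT387 (log2 -1.25, adjusted p = 0.0416), on 2 CYT387 libraries. Without CYT387 library 1 these became 1.32 (adjusted p = 0.137) and -1.19 (adjusted p = 0.18), and they were also lost without CYT387 library 3. The first was lost without SAR302503 library 1 (0.84, adjusted p = 0.166) and the second without BMS911543 library 1 or 2. No line passed against naive cells, and the mean of the lines differed by -0.18 (adjusted p = 0.72).

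**Figure D3:**
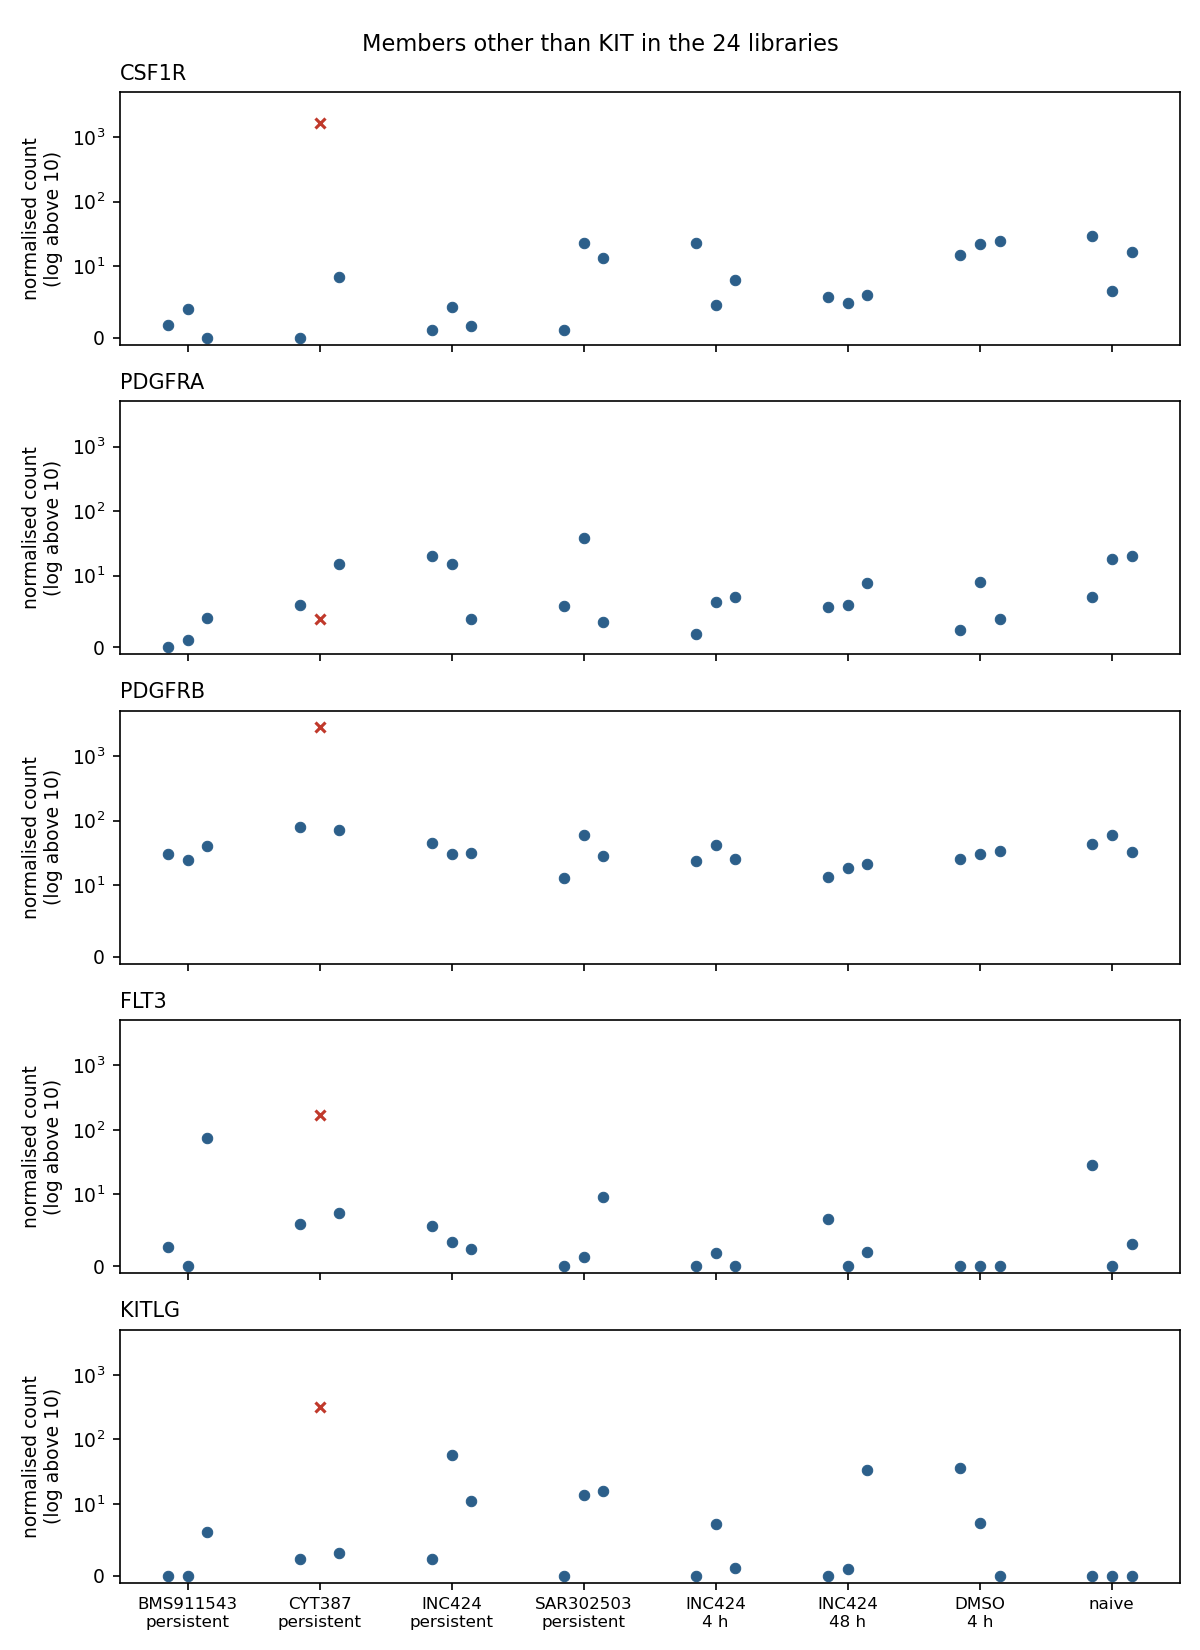
Normalised read counts of CSF1R, PDGFRA, PDGFRB, FLT3 and KITLG in the 24 libraries by group (axis linear up to 10 and logarithmic above). Red crosses are CYT387 persistent library 2, which is far above all others for CSF1R, PDGFRB, FLT3 and KITLG but not for PDGFRA.

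In CYT387 persistent library 2 PDGFRB stood at 2829 normalised counts, CSF1R at 1631, KITLG at 313 and FLT3 at 169, each above every other library. PDGFRA stood at 3.95 there, within the range of the others. The stroma list of that library held 7512 counts of COL1A1 but 23.7 of DCN, and the macrophage list held 4251 of C1QA and 1031 of CD163, where the other libraries had at most 113, 2.01, 49.7 and 7.93. Endothelium markers summed to 35687 there, against at most 25072 in the other libraries, with PLVAP at 14802 and CDH5 at 2859, against at most 2009 and 201. Not every listed marker was raised. The endothelium markers TIE1 (3831), ESAM (3972) and EGFL7 (4856) and the macrophage marker MS4A4A (910) lay under libraries 1 and 3 of the line. LUM of the stroma list (3.95) and CD68 of the macrophage list (233) lay within the range of the other libraries. The part of stroma, macrophage and endothelium cells in the 4 raised members was not tested.

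KITLG, the ligand of KIT, had no read in the 3 naive libraries. INC424 persistent cells held 2.27, 57.9 and 11.1 normalised counts, SAR302503 persistent cells 0, 13.98 and 15.9, BMS911543 persistent cells 0, 0 and 6.10, and CYT387 persistent libraries 1 and 3 held 2.37 and 3.19. INC424 gave 0, 7.22 and 1.00 at 4 h and 0, 0.971 and 34.0 at 48 h, and DMSO cells held 35.8, 7.39 and 0. Single libraries thus carried most of the reads in several groups, and DMSO cells reached levels like those of the INC424 persistent line. The INC424 line passed the test against naive cells (log2 3.73, adjusted p = 0.0422), where 33.3% of all genes were called. The fitted value depends on the added 1 because naive cells are at 0, and it fell to 2.65 (adjusted p = 0.202) without INC424 library 2. It was also lost without INC424 library 3 or any 1 naive library. The mean of the lines differed by 2.31 (adjusted p = 0.124).

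KITLG was set beside the summed squamous epithelium markers of each library. In each of the 7 groups with any KITLG read, the library with the highest sum was also the one with the most KITLG, in the CYT387 line through library 2. INC424 persistent library 2 held 6128 counts of these markers and 57.9 of KITLG, INC424 48 h library 3 held 5964 and 34.0, and DMSO library 1 held 1277 and 35.8. SAR302503 library 3 had the highest sum of the 23 libraries, 30462, with 15.9 of KITLG, and library 1 of that line held 2067 and no KITLG read. INC424 persistent libraries 1 and 3 ran in opposite order, with 1600 and 1068 of the markers beside 2.27 and 11.1 of KITLG, as did CYT387 libraries 1 and 3, with 587 and 145 beside 2.37 and 3.19. Of the 10 listed squamous genes 9 were in the table, and their sum ran between 48.7 and 30462 over 23 libraries. Among the naive libraries it was 192, 439 and 87.6. The part of these markers in KITLG was not tested.

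**Figure D4:**
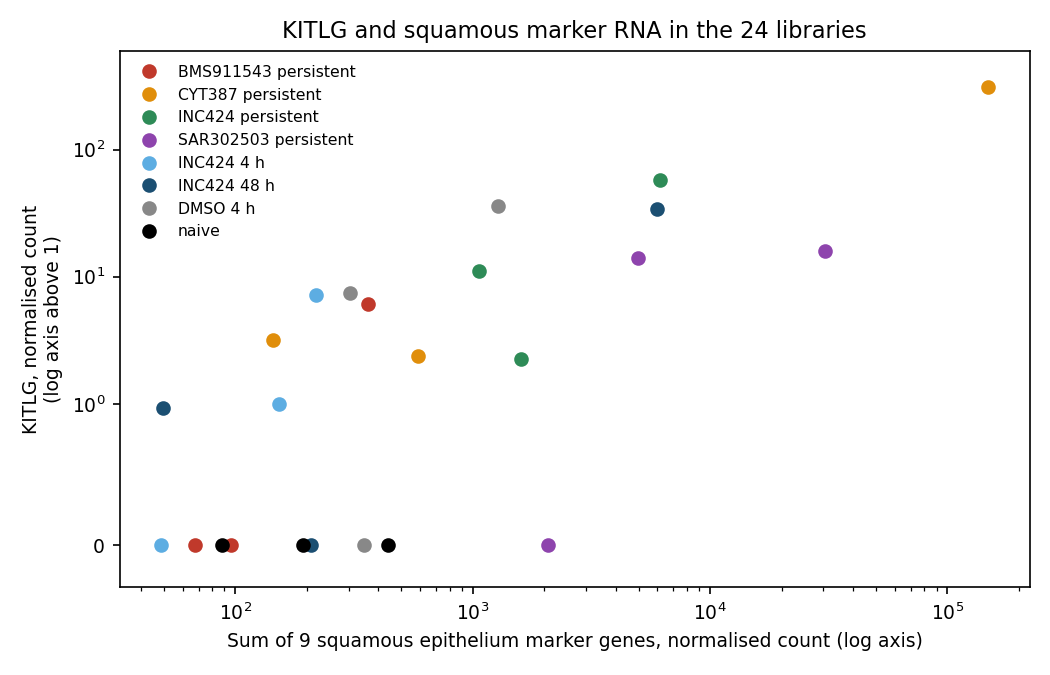
KITLG (normalised count, linear up to 1 and logarithmic above) against the summed squamous epithelium markers (normalised count, log axis) in the 24 libraries, coloured by group. The library at the top right is CYT387 persistent library 2 with 313 counts of KITLG, and the 3 naive libraries lie at 0.

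Among the other ligands of class III receptors, 1 of 7 rose and 4 fell in the mean of the 4 lines against naive cells, with a median log2 difference of -0.72, against 0.01 over all genes, of which 30.8% were called. PDGFD, a ligand of PDGFRB, had a lowest, median and highest value of 85.4, 116 and 330.4 in the 11 libraries of the lines, against 788, 818 and 913 in naive cells (log2 -2.57, adjusted p = 9.25e-13). CSF1, the macrophage growth factor, had 2168, 3902 and 7458 in the lines, against 9284, 10315 and 11141 in naive cells (log2 -1.19, adjusted p = 1.51e-10). Neither gene overlapped between the lines and naive cells. Both were named for large differences in this comparison, so that is no separate test. IL34 (log2 -1.24, adjusted p = 0.0419) fell and PDGFB (log2 2.48, adjusted p = 0.0176) rose from low levels, with naive means of 22.0 and 3.27. The IL34 call was lost in 10 of 35 alternatives, among them without naive library 3 (log2 -0.85, adjusted p = 0.266), naive library 2, BMS911543 library 1 or 3, CYT387 library 3 or INC424 library 2. The PDGFB call was lost without naive library 3 (log2 1.75, adjusted p = 0.162) or naive library 1 and with both count models. At 48 h of INC424 CSF1 alone passed, at 10406 ± 213 against 7089 ± 843 with DMSO (log2 0.56, adjusted p = 0.000212). At 4 h none of the 7 passed. Of all genes, 44.5% were called at 48 h and 16.7% at 4 h.

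Adaptors and kinases downstream of KIT went both ways. Against naive cells 3 of the 22 tested rose and 4 fell over the lines (median -0.13), where 30.8% of all genes were called. SRC, a kinase recruited by activated KIT, had 3928, 5824 and 9688 as lowest, median and highest values in the lines, against 1244, 1542 and 1982 in naive cells (log2 1.89, adjusted p = 6.88e-13). PIK3CD, the PI3-kinase catalytic subunit of blood cells, had 966, 1427 and 1952, against 3535, 4168 and 4418 (log2 -1.50, adjusted p = 3.53e-12). Both genes were separated between the lines and naive cells, in opposite directions, but they too were named for large differences in this comparison. The regulatory subunit PIK3R2 rose (log2 0.94, adjusted p = 6.7e-06) and the kinase FYN fell (log2 -0.90, adjusted p = 7.31e-08). With acute INC424, 6 of the 22 were higher and none lower at 4 h, where 9.84% of all genes were called higher and 6.84% lower. At 48 h 8 were higher and 3 lower, where 23.1% of all genes were called higher and 21.5% lower. STAT5B, a STAT that KIT and JAK2 both activate, held 11908 ± 73.2 at 48 h and 9247 ± 407 at 4 h, against 5827 ± 112 with DMSO (log2 1.03 and 0.67, adjusted p = 1.39e-10 and 8.71e-07). GAB1, an adaptor of the PI3-kinase route, rose at 4 h (log2 0.91, adjusted p = 2.18e-05), and SOS1, which loads RAS with GTP, rose at 48 h (log2 0.94, adjusted p = 0.00014).

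Of 14 negative regulators of KIT, 6 were lower and 1 was higher over the lines (median -0.17), where 16.2% of all genes were lower and 30.8% were called in either direction. The phosphatases PTPN6 (log2 -0.51, adjusted p = 0.00063) and INPP5D (log2 -0.40, adjusted p = 9.2e-05) and the adaptor DOK1 (log2 -0.42, adjusted p = 0.0138) fell by small amounts, and GRB7 rose at low level (log2 2.20, adjusted p = 0.0199). DOK1 in the CYT387 line was at 2645 ± 82.8 (n = 2), against 2586 ± 30.5 in naive cells, and its call was lost without naive library 3 (adjusted p = 0.0524). The GRB7 call was lost without naive library 1 or without naive library 3 (log2 1.67, adjusted p = 0.147). Acute INC424 separated a pair of them. CBLB, a ubiquitin ligase that marks active receptors for degradation, held 1274 ± 12.4 at 48 h and 1115 ± 87.9 at 4 h, against 435 ± 57.2 with DMSO (log2 1.56 and 1.36, adjusted p = 7.3e-09 and 3.43e-07). SOCS1, a STAT-induced inhibitor of JAK and KIT signalling, held 23.4 ± 10.9 and 21.1 ± 8.5, against 81.4 ± 15.7 (log2 -1.87 and -1.96, adjusted p = 0.000918 and 0.00209). Of the 14, 3 were higher and 4 lower at 4 h, where 16.7% of all genes were called. At 48 h 4 were higher and 6 lower, where 44.5% of all genes were called.

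Of 16 transcription factors known to act at KIT in blood cells, 4 were higher and 7 lower over the lines (median -0.12). Of all genes tested, 14.6% were called higher and 16.2% lower. SPI1, a myeloid factor, had 497, 868 and 1930 as lowest, median and highest values in the lines, against 2946, 3023 and 3216 in naive cells (log2 -1.67, adjusted p = 1.39e-10). MYB, a factor of progenitors, had 3350.0, 5080.0 and 7405, against 9895, 10231 and 10783 (log2 -1.02, adjusted p = 9.31e-11). Both lay under naive cells in all 11 libraries, but they were named for large differences in this comparison. GATA2, a factor of stem cells and mast cells, had a log2 difference of -1.02 (adjusted p = 4.27e-07), but the CYT387 line was at 33538 ± 2433 (n = 2), against 33029 ± 4653 in naive cells. The BMS911543, INC424 and SAR302503 lines were at 8323 ± 649, 14061 ± 2276 and 18053 ± 4525. MITF, the mast cell and melanocyte factor, was lower over the lines (log2 -1.16, adjusted p = 6.93e-05), but the BMS911543 line was at 121 ± 17.7, against 133 ± 31.2 in naive cells.

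At 48 h of INC424, 9 of these 16 factors were higher and 2 lower than with DMSO (median 0.35). Of all genes, 23.1% were called higher and 21.5% lower. At 4 h 2 of the 16 were higher, where 9.84% of all genes were called higher. MITF held 327 ± 13.6 at 48 h and 252 ± 27.9 at 4 h, against 146 ± 21.2 with DMSO (log2 1.17 and 0.79, adjusted p = 0.000437 and 0.0284). The 4 h call of MITF was lost without any 1 of the 4 h libraries and without DMSO library 2 (log2 0.70, adjusted p = 0.115) or 3. ERG, an ETS factor of stem cells and megakaryocytes, held 6221 ± 207 at 48 h and 3920.3 ± 59.5 at 4 h, against 2258 ± 72.4 with DMSO (log2 1.46 and 0.80, adjusted p = 1.07e-11 and 1.06e-06). LDB1, which bridges GATA complexes, held 28086 ± 1143 at 48 h, against 11660.5 ± 1440 (log2 1.27, adjusted p = 8.05e-07). In the same comparison SPI1 fell (log2 -0.63, adjusted p = 0.00167) where KIT rose.

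Receptor tyrosine kinases of other classes showed no single direction in the lines, with 7 of 28 tested higher and 6 lower (median 0.20). Of all genes tested, 14.6% were called higher and 16.2% lower. EPHB6, an ephrin receptor, had 6.91, 23 and 64.4 as lowest, median and highest values in the lines, against 148, 151 and 154 in naive cells (log2 -2.42, adjusted p = 1.28e-08). MET, the hepatocyte growth factor receptor, was higher (log2 1.83, adjusted p = 0.00111), at 257 ± 34.7 in the BMS911543 line and 77.0 ± 6.68 in CYT387, against 36.0 ± 13.7. ROR1 passed over the mean of the lines (log2 1.83, adjusted p = 0.035), but it stood at 161 ± 7.17 in the INC424 line and at 10.7 ± 3.95 in BMS911543, 3.19 ± 4.51 in CYT387 (n = 2) and 1.56 ± 1.80 in SAR302503 cells, against 2.53 ± 2.21 in naive cells. That call was lost in 8 of 36 alternatives, among them without naive library 2 (log2 1.08, adjusted p = 0.294), BMS911543 library 2, CYT387 library 3 or INC424 library 1. After acute INC424, MERTK, a receptor for apoptotic cells, held 2551 ± 135 at 48 h and 1501 ± 66.3 at 4 h, against 748 ± 44.7 with DMSO (log2 1.77 and 1.00, adjusted p = 2.28e-12 and 1.51e-07). EPHA2 fell at 4 h (log2 -2.11, adjusted p = 0.0334) and FLT1 at 48 h (log2 -1.88, adjusted p = 0.00163), both from under 103 counts. The EPHA2 call was lost without DMSO library 1 or 2 or 4 h library 1 or 3 (log2 -1.68, adjusted p = 0.161).

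Genes that mark the cells in which KIT is usually found were also listed. Over the mean of the lines 3 of 9 tested stem and progenitor genes rose and 5 fell (median -0.38). Of all genes tested, 14.6% were called higher and 16.2% lower. CD34, the progenitor surface protein, was lowest in INC424 persistent cells at 5053 ± 346, and stood at 13661 ± 782 in BMS911543, 22528 ± 685 in CYT387 and 26893 ± 858 in SAR302503 cells, against 31671 ± 2509 in naive cells (log2 for the mean of the lines -1.15, adjusted p = 3.29e-12). In SAR302503 cells CD34 was thus close to the naive level (log2 -0.23, adjusted p = 0.0416), with KIT 5.20-fold lower. PTPRC (log2 -0.70, adjusted p = 5.4e-05) and CD38 (log2 -2.37, adjusted p = 0.0015) fell over the mean of the lines, but CD38 in the INC424 line was at 53.2 ± 10.04, against 55.5 ± 13.7 in naive cells. CRHBP passed (log2 1.94, adjusted p = 0.0217), but it stood at 292 ± 25.6 in the INC424 line and at 3.64 ± 2.17, 1.12 ± 0.0859 and 0 in the BMS911543, CYT387 and SAR302503 lines, against 1.07 ± 1.02 in naive cells. CRHBP met the filter of 10 counts in at least 3 libraries only through the INC424 line, the group where it is high. Its call, 1 of the 3 counted as higher, is therefore no support for a rise over the lines. Without naive library 2 its difference was 1.49 (adjusted p = 0.146), and the call was also lost with both count models. At 48 h of INC424, 6 of the 9 were higher and none lower, where 23.1% of all genes were called higher. CD38 was 1 of the 6 (log2 1.83, adjusted p = 0.0305). That CD38 call was lost without any 1 of the 48 h libraries and without DMSO library 2 or 3 (log2 1.205, adjusted p = 0.186). At 4 h 3 were higher, where 9.84% of all genes were called higher. PTPRC (log2 0.82, adjusted p = 0.000337) and ANGPT1 (log2 0.54, adjusted p = 0.0265) had the largest differences. The ANGPT1 call was lost without DMSO library 3 or 4 h library 2 or 3 (log2 0.42, adjusted p = 0.148).

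Of the mast cell and basophil genes, 9 of 11 tested fell over the lines and none rose, with a median of -2.75. Of all genes tested, 16.2% were called lower. CPA3, a mast cell carboxypeptidase, had 30.1, 66.1 and 362 as lowest, median and highest values in the lines, against 2374, 2534 and 3269 in naive cells (log2 -4.96, adjusted p = 1.7e-18). Like KIT, it was highest among the lines in CYT387 cells, at 342 ± 28.5 (n = 2), against 2726 ± 477 in naive cells. IL1RL1, the interleukin 33 receptor, had 6.16, 64.4 and 105 in the lines, against 949.8, 954 and 1010.3 (log2 -4.18, adjusted p = 3.12e-09). The tryptases TPSAB1 (log2 -4.50) and TPSB2 (log2 -4.25) fell as well, but they are near-identical copies between which reads may be split. In DMSO cells 7 of the 11 were lower and 1 higher than in naive cells (median -1.36), where 20.4% of all genes were called lower. The vehicle group too thus lay below naive cells. At 48 h of INC424, 6 of the 11 were higher than with DMSO and none lower (median 0.66), where 23.1% of all genes were called higher. TPSAB1 was at 836 ± 136 at 48 h, against 149.6 ± 41.0 with DMSO (log2 2.50, adjusted p = 1.62e-06). At 4 h ENPP3 was higher (log2 0.55, adjusted p = 0.000593) and FCER1A lower (log2 -0.39, adjusted p = 0.0393). The FCER1A call was lost without any 1 DMSO library and without 4 h library 2 (log2 -0.31, adjusted p = 0.184) or 3.

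The genes whose profile over the 8 group means lay nearest to that of KIT were sought among 13653 genes, by the root mean square difference of centred log2 means. DEPTOR, an inhibitor of mTOR, was the nearest at 0.17, followed by C8G at 0.27, RAB44 at 0.28, PDGFD at 0.28 and ENPP3 at 0.31. DEPTOR held 195 ± 35.3 in the BMS911543 line, 499 ± 16.4 in CYT387, 122 ± 14.3 in INC424, 179 ± 41.8 in SAR302503, 987 ± 41.0 at 4 h, 1160 ± 63.8 at 48 h, 691 ± 82.5 with DMSO and 1086 ± 132 in naive cells. Its order of groups matched that of KIT at both ends. ENPP3, a basophil and mast cell ectoenzyme, held 4637 ± 258 at 48 h of INC424, against 7191 ± 162 in naive cells, an order opposite to that of KIT. RAB44, a large RAB GTPase, and C8G, a subunit of complement component C8, were at low level, with naive means of 160.2 ± 40.6 and 253 ± 99.8. The measure describes 8 groups, and these genes were picked by it, so it carries no test.

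**Figure D5:**
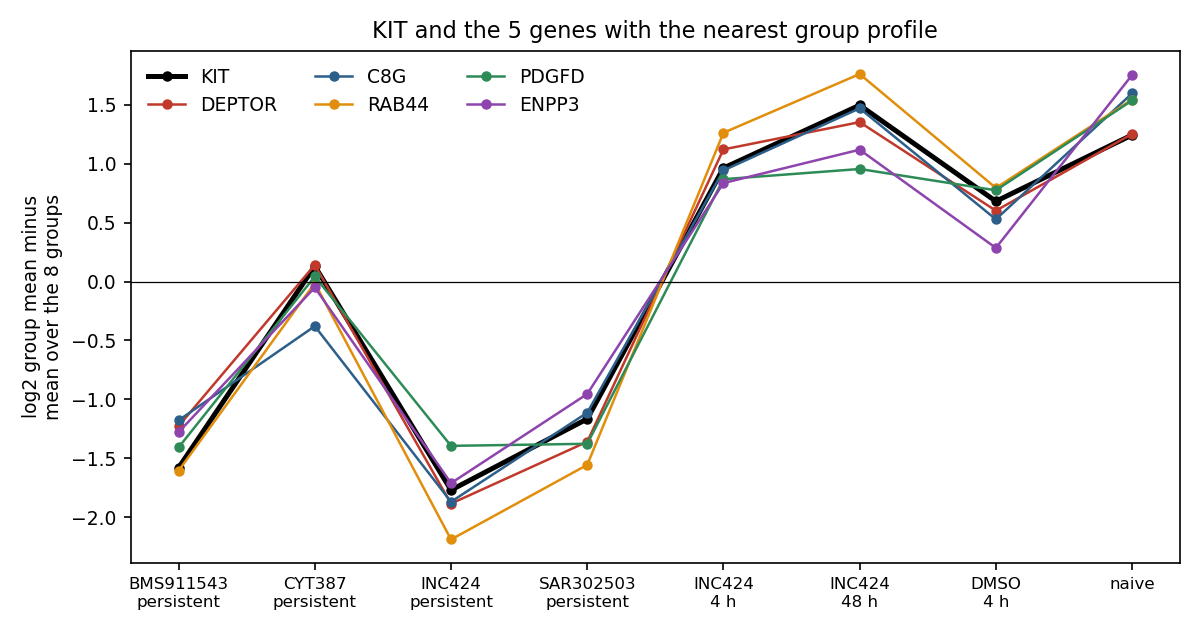
Log2 group means of KIT and its 5 nearest genes, each minus its own mean over the 8 groups (vertical axis), by group. All 6 genes are lowest in the BMS911543, INC424 or SAR302503 lines and intermediate in CYT387, and ENPP3, C8G and PDGFD are highest in naive cells while KIT, DEPTOR and RAB44 are highest at 48 h of INC424.

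The protein-coding genes beside the members on their chromosomes were tested over the lines as well. Of 24 neighbours, 17 were in the table and 16 were tested, of which 1 rose and 3 fell in the mean of the lines, where 30.8% of all genes were called. Beside KIT, CHIC2 (log2 0.01), SRD5A3 (log2 -0.31) and TMEM165 (log2 0.20) did not pass in the mean of the lines. At 48 h of INC424 CHIC2 was higher than with DMSO (log2 0.89, adjusted p = 0.000136), while SRD5A3, TMEM165 and KDR were not called. LNX1, a neighbour of PDGFRA, was higher too (log2 2.36, adjusted p = 3.38e-08). Of the 16 neighbours, 3 were higher and 5 lower at 48 h, where 44.5% of all genes were called. KDR, the endothelial growth factor receptor whose gene is next to KIT, stood at 2070.2 ± 79.9 in INC424 persistent cells and at 10.5 to 70.5 in the other lines, against 149 ± 25.0 in naive cells. CYT387 persistent library 2, which is not in these values, held 3362. The INC424 line was above naive cells (log2 3.80, adjusted p = 1.27e-06) and above the 48 h group (log2 5.21, adjusted p = 7.51e-09), in the cells where KIT was lowest. DUSP6, the phosphatase of ERK that lies next to KITLG, was lower in the mean of the lines (log2 -2.61, adjusted p = 1.88e-10) and at 48 h of INC424 (log2 -2.97, adjusted p = 1.03e-09). In the INC424 persistent line DUSP6 was higher than in the 48 h group (log2 2.48, adjusted p = 1.7e-08), where 40.6% of all genes were called.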

How the data were processed

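RNA of 24 libraries was measured by poly(A) RNA-seq on the Ion Proton with 16 PCR cycles, per the labels' protocols. The authors deposited 1 table of normalised signal, counts divided by a size factor per library, and the submitters' processing notes name BWA 0.7.5.1, HTSeq 0.5.3p3, DESeq 1.10.1, hg19 and GRCh37 without roles. Whether counting used strand is not given in the sources used here. Dividing each library by its smallest step gave whole reads for 100% of values (tolerance 0.01). In 3 libraries the step was within 0.01 of 1. Per the labels, 9 libraries were run again or on 2 lanes.

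Values were analysed as log2(value + 1) for genes with at least 10 in at least 3 libraries, with 1 model of 8 groups and 23 libraries in limma 3.58.1 under R 4.3.3, trended empirical Bayes and two-sided tests. CYT387 persistent library 2 was left out. Checks used edgeR 4.0.16 and DESeq2 1.42.0 on the recovered reads, other pseudocounts, filters and scalings, and leaving out libraries. The script was tested on simulated data. Levels between genes were compared as reads per kilobase of GENCODE exon scaled to library size. The members and lists were chosen with earlier results of these data known. Named genes were the members, the up to 4 list genes with the largest called differences in the mean of the lines and up to 2 for each acute comparison, the 5 nearest profiles to KIT with a mean of at least 50, and the 3 protein-coding neighbours on each side, of which only those with a called difference, or beside KIT, are described. Symbols were matched to RefSeq tables of another build, so no gene coordinates are given except for the RefSeq promoter of KIT, one of 6 members with a promoter in that table. A few genes that this rule names are not reported here.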

Additional observations from a re-analysis of the deposited data

Results flagged for a closer look

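The KIT difference from naive cells was not the same in all lines, as tested by the difference between pairs of lines. KIT in the BMS911543 line differed by -1.71 on the log2 scale from the CYT387 line and by -0.41 from the SAR302503 line. The CYT387 line differed by 1.90 from INC424 and by 1.30 from SAR302503, and the INC424 line by -0.60 from SAR302503. PDGFRA in the BMS911543 line differed by -2.47 from INC424 and by -2.29 from SAR302503. PDGFRB differed by -1.25 between BMS911543 and CYT387 and by 1.39 between CYT387 and SAR302503. The PDGFRA and PDGFRB differences rest on 67 reads or fewer per library.

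CYT387 persistent library 2, which was left out of the model of 23 libraries, held 2829 normalised counts of PDGFRB, 1631 of CSF1R, 313 of KITLG and 169 of FLT3, above every control library.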

How the results depend on the processing

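KIT kept its direction and its side of the threshold in each line and their mean against naive cells, and in the INC424 line against 48 h, under every alternative run. Fitting the compared groups alone gave KIT an adjusted p of 0.0257 for INC424 4 h against DMSO (log2 0.28), 0.125 for BMS911543 against SAR302503 (log2 -0.41) and 0.0798 for INC424 against SAR302503 (log2 -0.60). With all 24 libraries KIT lost the threshold for 48 h against 4 h (log2 0.53, adjusted p = 0.173), DMSO against naive (log2 -0.56, 0.106), BMS911543 against SAR302503 (log2 -0.41, 0.241) and INC424 against SAR302503 (log2 -0.60, 0.127). Leaving out single libraries gave -0.64 to -0.24 for BMS911543 against SAR302503, and 0.20 to 0.37 for 4 h against DMSO, which passed without SAR302503 library 3 (adjusted p = 0.0176). Without 3 further squamous-rich libraries, a choice made after seeing the data, 4 h against DMSO was 0.28 (adjusted p = 0.0213). With naive cells as the reference, also added later, KIT was -0.28 at 4 h and 0.25 at 48 h. The cause was not tested.

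PDGFRB in the mean of the lines changed sign with all 24 libraries (0.25), without naive library 2 (single libraries left out gave -0.40 to 0.039) and against DMSO (0.37), as did PDGFRA (0.40) and KITLG (-0.45) against DMSO. Tests passed by members other than KIT numbered 9, 2 with a filter at 50, 4 with the compared groups alone and 5 to 13 without single libraries. KITLG in the INC424 line lost its call in 10 of 35 alternatives (adjusted p 0.0228 to 0.61). Of 60 results of other named genes, 15 lost the threshold in at least 1 alternative, and none changed sign. With all 24 libraries 12 were lost: IL34, GRB7, DOK1 and MITF over the lines, MITF, ERG, EPHA2, ANGPT1, ENPP3 and FCER1A at 4 h, and FLT1 and CD38 at 48 h. PDGFB, ROR1 and CRHBP over the lines were lost under other alternatives.

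Genes called moved by over 1.5 times with all 24 libraries for SAR302503 against naive (3888, against 6090), 4 h against DMSO (1687, against 3316), 48 h against 4 h (2967, against 5073), BMS911543 against INC424 (3329, against 5425) and INC424 against SAR302503 (2566, against 4519). With the groups alone SAR302503 against naive gave 2663, 4 h against DMSO 5190, 48 h against 4 h 7686 and INC424 against SAR302503 1844. In that setting BMS911543 against SAR302503 gave 4558 (7576 otherwise) and CYT387 against SAR302503 gave 1536 (5323 otherwise). Without either CYT387 library, CYT387 against naive gave 1932 and 2038 genes (3659 otherwise), and BMS911543 against CYT387 gave 3890 without library 1 (6076 otherwise). Likewise CYT387 against INC424 gave 2986 and 3172 (4838 otherwise), and CYT387 against SAR302503 3426 and 3010. INC424 against SAR302503 gave 6876 without SAR302503 library 3 and 6820 without the 3 squamous-rich libraries. CYT387 against DMSO gave 7549.

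A replicate block gave KIT -2.33 in the mean of the lines (adjusted p = 7.78e-14) and changed no KIT call. In no comparison with 3 pairs did every pair's deviations correlate above 0.1, so the numbers were treated as unpaired. That rule cannot show that pairing is absent. BMS911543 against CYT387 had only replicates 1 and 3, at 0.291 and 0.108. INC424 against SAR302503 reached 0.338 in replicate 2, with 0.026 in replicate 1. Members other than KIT are limited by depth, at 74 reads or fewer per library.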
